A study of Mus musculus with 6 samples.

Results

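Clustered histone genes are the mouse genes whose symbols begin with Hist1h, Hist2h, Hist3h or Hist4h, and they were taken from the table of the fetal cortex by their gene names. Of 70 such rows, 65 were above 0 TPM in at least 1 of the 6 samples and 5 were listed at 0 in all of them, out of 56198 entries in the table. TPM, the unit of the table, counts transcripts relative to a fixed total per sample after a correction for length. The study asked how sevoflurane given to pregnant mice acts on the progenitors of the fetal cortex. Total RNA was taken from the cortex of C57BL/6 fetuses at E14.5. The Sevo group (n = 3) came from dams that breathed 2.5% sevoflurane, an inhaled anaesthetic, in 97.5% O2 for 6 h, and the Ctr group (n = 3) from dams that breathed 100% O2 for 6 h. Both groups thus breathed a high share of oxygen, and no group breathed air. The sources used here do not say from how many fetuses or litters a sample was drawn, so the tests measure the spread between these samples, which may in part be technical.

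Histones package DNA. The core histones H2A, H2B, H3 and H4 form the octamer of the nucleosome, and the linker histone H1 binds where the DNA enters and leaves it. Most clustered histone genes lack introns and are transcribed in S phase, when new DNA has to be packaged. Which cells of the fetal cortex express them was not tested here. The mRNAs of these genes end in a conserved stem-loop, which the stem-loop binding protein SLBP binds, instead of a poly(A) tail. Several of these genes also give rise to longer, polyadenylated transcripts, which have been described in cells that have left the cycle. Histone variants such as H3.3 come from genes outside the clusters, are polyadenylated and are made through the whole cycle.

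The stem-loops are shown because they set these mRNAs apart from other mRNAs and because the library step that selects RNA bears on how such mRNAs are counted. The 3′ stem-loop consensus, 16 bases long, was found in the annotated transcripts of 44 of the 65 members (GENCODE M21, GRCm38), against 0.179% of the coding transcripts of all other genes. The members without it included 13 whose models end at the stop codon, so no match says only that these letters are not in the model. There were 8 distinct stem-loops. The genes below are the ones the results turn on, ordered by stem-loop, with the stem-loop in capitals and the flanking bases of the transcript in lower case, 5′ to 3′.
Hist1h1c (chr13:23739507-23739532, + strand): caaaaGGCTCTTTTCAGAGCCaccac
Hist3h2ba (chr11:58949344-58949369, + strand): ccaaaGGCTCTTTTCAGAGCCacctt
Hist3h2a (chr11:58955167-58955192, + strand): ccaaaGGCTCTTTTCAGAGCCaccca
Hist2h2aa1 (chr3:96246027-96246052, + strand): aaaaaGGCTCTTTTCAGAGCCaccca
Hist1h3b (chr13:23752815-23752840, + strand): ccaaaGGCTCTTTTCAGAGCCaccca
Hist1h3c (chr13:23745042-23745067, - strand): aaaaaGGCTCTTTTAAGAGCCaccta
Hist1h3g (chr13:23535884-23535909, + strand): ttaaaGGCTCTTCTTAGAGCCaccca
Hist1h4h (chr13:23531453-23531478, + strand): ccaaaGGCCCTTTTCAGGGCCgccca
Hist1h4m (chr13:21812124-21812147, + strand): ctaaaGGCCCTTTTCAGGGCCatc
Hist1h4i (chr13:22040961-22040986, - strand): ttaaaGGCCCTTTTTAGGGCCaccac

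The form shared by Hist1h1c, Hist3h2ba, Hist3h2a, Hist2h2aa1 and Hist1h3b was found in 24 members of the H1, H2A, H2B and H3 families. The form of Hist1h4h and Hist1h4m was found in 7 H4 genes. The model of Hist1h4m ends 3 bases past its stem-loop, as a processed histone mRNA does, whereas that of Hist1h1c runs on for another 840 bases, that of Hist3h2a for 1643 and that of Hist3h2ba for 169. No match was found in the models of Hist1h2bc and Hist2h2be, both H2B genes, or of Hist1h3i.

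All 65 members were found in the annotation by identifier. They comprise 6 linker genes and 59 core genes, with 17 H2A, 18 H2B, 11 H3 and 13 H4 genes. Of the core genes, 2 are annotated as pseudogenes, Hist1h2aj of H2A and Hist3h2bb-ps of H2B, and both were tested and counted with their families. By cluster, 52 belong to Hist1 on chromosome 13, 9 to Hist2 on chromosome 3, 3 to Hist3 on chromosome 11 and 1 to Hist4 on chromosome 6. Histone genes are near copies of each other, and 29 of the 65 share more than 50% of their 50-base windows with another member, so that the values of such genes are uncertain. Nearly all of the sequence of Hist1h1c (8.54% of windows shared) and of Hist3h2a was its own, and none of Hist2h2be was shared. By contrast, Hist1h4m shared 89.8% of its windows with Hist1h4n, and Hist2h2aa1 shared 89.2% with Hist2h2aa2. The sources used here do not say whether strand was used in counting. The exons of Hist3h2a overlap those of Gm44313 and Trim17, and those of Hist1h1e overlap those of Hist1h2be.

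Each sample held between 22725 and 24039 entries above 0 TPM, and between 7.89% and 9.13% of its TPM came from mitochondrially encoded genes. Entries with no gene name took between 1.52% and 1.74% of the TPM in Sevo samples, against 0.753% in Ctr 1, 1.04% in Ctr 2 and 3.32% in Ctr 3, so the Ctr samples were less alike in this than the Sevo samples. Read depth is unknown, since TPM keeps none, and no counting interval can be given. All 8 markers of the cortex were present, with sums of 1618 to 2298 TPM in Sevo samples, against 1792 to 1941 TPM in Ctr samples. The groups overlapped in 6 of them, while Tbr1, a marker of early-born neurons, averaged 138 ± 7.95 TPM in Sevo and 194 ± 24.9 TPM in Ctr, and Eomes, a marker of intermediate progenitors, 133 ± 20.9 TPM in Sevo and 171 ± 3.87 TPM in Ctr (SD, n = 3 each). Both were lower in every Sevo sample, with differences of -0.49 and -0.38 on log2(TPM + 1) and adjusted p of 0.108 and 0.163 from limma, and their part in the histone values was not tested. The 9 markers of erythroid cells summed to 2694 to 4231 TPM in Sevo samples, against 2199 to 3903 TPM in Ctr samples. The 6 markers of the meninges summed to 7.06 to 24.3 TPM in Sevo samples, against 5.02 to 105 TPM in Ctr samples, and the highest of these was Ctr 2. The sums for the ganglionic eminence (68.3 to 194 TPM in Sevo samples, 100 to 123 TPM in Ctr samples), the endothelium (49.4 to 63.4 TPM in Sevo samples, 47.9 to 100 TPM in Ctr samples) and microglia (19.1 to 22.1 TPM in Sevo samples, 19.4 to 26.5 TPM in Ctr samples) overlapped between the groups as well.

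Together the 65 genes gave 735, 735 and 900 TPM in Sevo samples 1 to 3, against 752, 713 and 698 TPM in Ctr samples 1 to 3. This is between 0.0698% and 0.0900% of the TPM of a sample. A single H2B gene, Hist3h2ba, made up 44.6% of the mean sum. The 27 members with a long 3′ end, here at least 150 bases after the stop codon, held 72.5% of it, the 23 with a short one held 22.0%, and the 13 with none held 4.57%. The 2 pseudogenes, left out of these classes, held 0.922%. These classes were drawn after the values had been seen. Between 42 and 49 members reached 1 TPM in a sample. The rule admitted Hist1h1t, which had 0.09 TPM in Ctr 2 alone, and Hist2h2ab, which had 0.36 TPM in Sevo 3 alone, and it left out Hist1h2aa, Hist1h2al, Hist1h2ao, Hist1h2ba and Hist2h3c1 at 0.

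The 46 members that averaged 1 TPM or more were tested. The lowest of these were Hist1h3e with a mean of 1.13 TPM and Hist1h4n with 1.18 TPM, and the highest of the 19 below the limit was Hist1h2br with 0.903 TPM. Differences below are Sevo minus Ctr on the scale of log2(TPM + 1), with the standard error, from limma with Benjamini-Hochberg adjustment over all 14518 genes tested. On this scale the change of a low gene is understated. In bulk tissue, fewer cells that express a gene and less of its RNA per cell cannot be told apart.

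Other RNAs that carry no poly(A) tail were compared first, as the sources used here do not say how RNA was selected for the libraries. Of 14 such rows found, 7 were at 0 in every sample and 7 were tested. Of the 7, 6 had positive differences (41.1% of all genes), with a median of 1.27. In 4 of the 7, Rn7s1, Rn7s2, Rn7sk and 1 of the rows named Rmrp, every Sevo sample was higher (9.43% of all genes). Rn7s1 and Rn7s2 hold identical values, so these counts include the same values more than once, and the median is their difference. Rn7sk, an RNA that holds the elongation factor P-TEFb inactive, averaged 297 ± 39.2 TPM in Sevo and 111 ± 40.6 TPM in Ctr (SD, n = 3 each), a difference of 1.48 with an adjusted p of 0.0801. The sum of these RNAs was 1220, 1055 and 1095 TPM in Sevo samples, against 189, 638 and 1130 TPM in Ctr samples. Ctr 3 reached the range of the Sevo samples through Rpph1, at 70.3, 57.4 and 43.1 TPM in Sevo samples, against 11.2, 78.9 and 377 TPM in Ctr samples. Without Rpph1 and the repeated Rn7s2, the sum was 807, 670 and 723 TPM in Sevo samples, against 129, 369 and 470 TPM in Ctr samples, without overlap and with Ctr 1 the lowest. The rows Gm42418, Gm26917 and Lars2, the last of which encodes a mitochondrial tRNA synthetase, were listed as possible collectors of ribosomal RNA reads, which was not tested. They summed to 430, 821 and 483 TPM in Sevo samples, against 180, 252 and 880 TPM in Ctr samples, and Lars2 gave 522 TPM of the sum in Ctr 3. The part of these differences between libraries in the histone values that follow was not tested.

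The linker histone gene Hist1h1c had the largest difference among the tested members. It encodes H1c, a somatic subtype of the linker histone, and is a gene without introns at chr13:23738808-23740367 on the + strand. Its level was 39.7, 15.6 and 82.4 TPM in Sevo samples 1 to 3, against 8.15, 9.95 and 8.38 TPM in Ctr samples 1 to 3. Every Sevo sample lay above every Ctr sample, and the Sevo samples differed far more among themselves than the Ctr samples did, with Sevo 3 the highest and Sevo 2 the lowest. The means were 45.9 ± 33.8 TPM in the Sevo group and 8.83 ± 0.980 TPM in the Ctr group (SD, n = 3 each), 5.20 times higher in Sevo. The log2 difference was 1.97 ± 0.50 (SE), with an adjusted p of 0.119 from limma, so it did not pass the threshold of 0.05. It ranged between 1.41 without Sevo replicate 3 and 2.57 without Sevo replicate 2, and the adjusted p over all alternatives ranged between 0.0699 and 0.358.

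The promoter of Hist1h1c is shown because this gene had the largest difference. It is printed from 250 bases before to 50 bases after the start of transcription (RefSeq, GRCm38.p6), with the H1 box AAACACA, an element of linker histone promoters, and the CCAAT box in capitals.
Hist1h1c (chr13:23738557-23738856, + strand): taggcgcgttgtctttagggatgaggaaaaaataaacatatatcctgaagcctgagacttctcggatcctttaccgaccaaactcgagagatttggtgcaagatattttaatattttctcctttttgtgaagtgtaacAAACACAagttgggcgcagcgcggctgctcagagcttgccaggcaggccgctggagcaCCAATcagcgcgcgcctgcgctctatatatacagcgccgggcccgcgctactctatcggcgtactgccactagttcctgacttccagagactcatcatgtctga

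Promoters of this length were matched for 58 members, which gave 59 promoters. The H1 box, searched on either strand as were all motifs, was found in 5 of 6 linker promoters, against 7.18% of all 32851 promoters. The CCAAT box was found in all 6 linker promoters and in 50 of 59 member promoters, against 37.4% of all promoters. The H4 genes made up the 9 without it, since 3 of 12 H4 promoters held it.

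The TATA box, searched as TATAAA, was found in 33 of 59 member promoters, against 13.6% of all promoters. The octamer ATTTGCAT, a sequence of H2B promoters that Pou2f1 (OCT1) binds, was found in 6 of 16 H2A and 6 of 16 H2B promoters, against 1.74% of all promoters. Promoters of neighbouring H2A and H2B genes on opposite strands can overlap. The same site can then count in both families, as the octamer of Hist1h2ae and Hist1h2bg does, so these counts are not independent. Matches of different motifs were counted whether or not they overlapped, and a match describes the sequence only.

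The other 5 linker genes were scarce and were not tested. Hist1h1e had 1.04, 0.68 and 1.39 TPM in Sevo samples, against 0.33, 0.48 and 0.85 TPM in Ctr samples. Hist1h1a had 1.25, 0.66 and 0.13 TPM in Sevo samples, against 0.24, 0.89 and 0.47 TPM in Ctr samples. Hist1h1b had 0.57, 1.06 and 0.66 TPM in Sevo samples, against 0, 0.88 and 0.23 TPM in Ctr samples. In all of these somatic subtypes the groups overlapped. Hist1h1d had 0.13, 0.11 and 0.33 TPM in Sevo samples, against 0.09, 0.1 and 0.17 TPM in Ctr samples. The testis gene Hist1h1t was listed at 0 in every Sevo sample and at 0, 0.09 and 0 TPM in Ctr samples. The linker sum was 42.7, 18.1 and 84.9 TPM in Sevo samples, against 8.81, 12.4 and 10.1 TPM in Ctr samples, and Hist1h1c made up most of it.

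**Figure D1:**
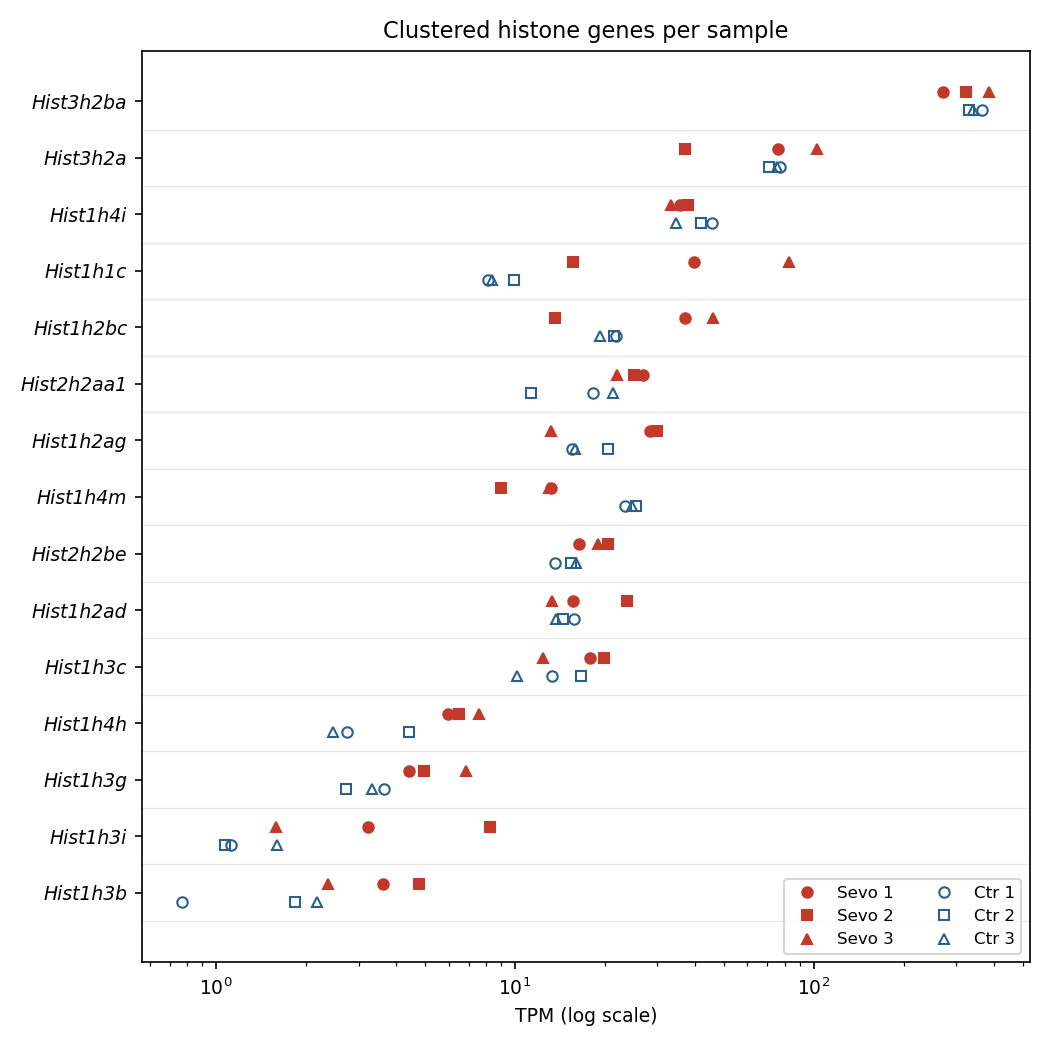
TPM (log axis) of the 15 tested histone genes named by rule, with the 3 Sevo samples as filled red symbols above the 3 Ctr samples as open blue symbols, and 1 symbol shape per replicate number. Hist1h1c lies at 15.6 to 82.4 TPM in Sevo samples and at 8.15 to 9.95 TPM in Ctr samples, whereas Hist1h4m lies at 8.98 to 13.2 TPM in Sevo samples and at 23.3 to 25.5 TPM in Ctr samples.

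In the 3 most abundant core genes the groups overlapped. Hist3h2ba, an H2B gene of the Hist3 cluster on chromosome 11 (chr11:58948920-58949533), was the most abundant member at 270, 324 and 387 TPM in Sevo samples, against 367, 331 and 341 TPM in Ctr samples. The groups overlapped, with the lowest and the highest sample both in the Sevo group. Its log2 difference was -0.10 ± 0.13 (SE), and it turned to 0.00106 when each sample was centred on its median and to 0.0337 without Sevo replicate 1.

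Hist3h2a, the H2A gene of the same cluster, had 75.7, 37.2 and 103 TPM in Sevo samples, against 76.9, 71.0 and 75.4 TPM in Ctr samples. Again the Sevo samples enclosed the Ctr samples, and Sevo 2 was lower than every other sample. The difference was -0.17 ± 0.32 (SE) and turned to 0.24 without Sevo replicate 2. The H4 gene Hist1h4i had 35.8, 37.9 and 33.2 TPM in Sevo samples, against 45.7, 41.8 and 34.6 TPM in Ctr samples, a difference of -0.18 ± 0.13 (SE) with overlap.

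The H2B gene Hist1h2bc had 37.2, 13.6 and 46.2 TPM in Sevo samples, against 21.8, 21.5 and 19.3 TPM in Ctr samples. Sevo 1 and Sevo 3 were above the Ctr samples and Sevo 2 below them, and the difference of 0.45 ± 0.39 (SE) had an adjusted p of 0.566. Hist2h2be, an H2B gene of the Hist2 cluster, had 16.4, 20.5 and 19.0 TPM in Sevo samples, against 13.6, 15.4 and 16.03 TPM in Ctr samples. The groups did not overlap, but the gap was narrow and the difference of 0.29 ± 0.13 (SE) had an adjusted p of 0.273.

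The H4 gene Hist1h4m had the smallest adjusted p among the members and was lower in Sevo. It had 13.2, 8.98 and 13.1 TPM in Sevo samples, against 23.3, 25.5 and 24.6 TPM in Ctr samples. Each group was compact and the groups were well apart. The log2 difference was -1.02 ± 0.16 (SE) with an adjusted p of 0.0746 from limma, which ranged between 0.0591 and 0.350 over the alternatives. Since Hist1h4m is nearly identical to Hist1h4n, their values were also added. The pair gave 13.6, 11.3 and 13.1 TPM in Sevo samples, against 24.0, 27.7 and 26.3 TPM in Ctr samples, so that the groups stayed apart.

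The 10 tested H4 genes were not of 1 direction. Hist1h4h, which carries the same stem-loop, had 5.99, 6.52 and 7.56 TPM in Sevo samples, against 2.75, 4.41 and 2.46 TPM in Ctr samples. Every Sevo sample was higher, and the difference was 0.89 ± 0.21 (SE) with an adjusted p of 0.111. Over the family, 7 differences were positive and 3 negative (Hist1h4m, Hist1h4n at -0.56 and Hist1h4i at -0.18), with a median of 0.08. The sum of the 13 H4 genes was nevertheless lower in Sevo, at 72.3, 71.3 and 70.1 TPM, against 84.1, 88.8 and 81.5 TPM in Ctr samples, without overlap, as Hist1h4i and Hist1h4m carry much of it.

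Of the 10 tested H3 genes, 9 had positive differences, where 41.1% of all genes did, with a median of 0.50. None passed an adjusted p of 0.05 in limma, the lowest being 0.181. Every Sevo sample was higher in 4 of them (9.43% of all genes) and lower in 1 (17.7% of all genes). Hist1h3i shared 87.6% of its windows with other members, Hist1h3b 60.4% and Hist1h3g 54.1%, so counts over such near copies are not independent. Most of the tested H3 genes were also low, and the median of their mean levels was 2.78 TPM. Hist1h3g had 4.42, 4.98 and 6.87 TPM in Sevo samples, against 3.65, 2.71 and 3.32 TPM in Ctr samples. Hist1h3b had 3.63, 4.77 and 2.36 TPM in Sevo samples, against 0.77, 1.84 and 2.17 TPM in Ctr samples. In both genes every Sevo sample lay above every Ctr sample, with differences of 0.59 ± 0.20 and 0.83 ± 0.30 (SE) and adjusted p of 0.181 and 0.196. Hist1h3i had 3.23, 8.28 and 1.59 TPM in Sevo samples, against 1.12, 1.07 and 1.6 TPM in Ctr samples. Here Sevo 3 lay within the range of the Ctr samples and Sevo 2 stood highest, and the difference was 1.05 ± 0.43 (SE) with an adjusted p of 0.235. The most abundant H3 gene, Hist1h3c, had 17.8, 19.9 and 12.5 TPM in Sevo samples, against 13.3, 16.7 and 10.2 TPM in Ctr samples, with overlap and an adjusted p of 0.496. The sum of the 11 H3 genes was 59.8, 67.4 and 41.6 TPM in Sevo samples, against 42.8, 41.8 and 31.5 TPM in Ctr samples, and Sevo 3 overlapped the Ctr samples.

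Among the H2A genes outside Hist3, the most abundant was Hist2h2aa1 with 26.8, 24.9 and 21.9 TPM in Sevo samples, against 18.2, 11.3 and 21.3 TPM in Ctr samples. The groups did not overlap, and the difference was 0.55 ± 0.22 (SE) with an adjusted p of 0.227. Added to its near copy Hist2h2aa2, it gave 39.1, 30.0 and 42.1 TPM in Sevo samples, against 23.8, 26.3 and 32.9 TPM in Ctr samples, and Sevo 2 then lay below Ctr 3. Hist1h2ag had 28.3, 29.8 and 13.2 TPM in Sevo samples, against 15.6, 20.5 and 15.9 TPM in Ctr samples. Hist1h2ad had 15.7, 23.7 and 13.3 TPM in Sevo samples, against 15.8, 14.4 and 13.8 TPM in Ctr samples, and its difference turned to -0.02 without Sevo replicate 2. In both of these genes Sevo 3 was the lowest of all 6 samples.

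Over the 46 tested members, none passed an adjusted p of 0.05 in either direction, where 0% of all genes tested were called higher and 0.00689% lower. There were 6 higher members (6.56% of all genes) and 1 lower member (12.8% of all genes) with an unadjusted p under 0.05. The values of the 3 Sevo samples all lay above those of the Ctr samples in 8 members (9.43% of all genes) and below them in 2 (17.7% of all genes). Positive differences were found in 34 members (41.1% of all genes) and negative ones in 12 (58.9% of all genes). The members that did not overlap and have not been named so far were Hist1h3d and Hist1h3e, both higher, and Hist2h3c2, an H3 gene that was lower at 1.93, 1.05 and 3.14 TPM in Sevo samples, against 3.29, 3.33 and 3.67 TPM in Ctr samples. These were named after their values had been seen. The count of members that did not overlap and were higher became 17 without Sevo replicate 3 (1943 of all genes, against 1369 with it). The count of those lower became 4 without Sevo replicate 1 (3508 of all genes) and 5 without Ctr replicate 3 (3126 of all genes, against 2572 with every sample). At an unadjusted p the count of higher members became 3 without Ctr replicate 2, and that of lower members became 3 without Sevo replicate 1 and 2 without Sevo replicate 2 or Sevo replicate 3. The counts over all genes at an unadjusted p under these omissions are not given here, so nothing is read from these changes about the members.

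The median log2 difference was 0.14 over the 45 core genes, against -0.06 over all genes tested, and the linker value is that of Hist1h1c. By family it was 0.20 for 13 H2A, 0.04 for 12 H2B, 0.50 for 10 H3 and 0.08 for 10 H4 genes. By cluster it was 0.20 for 38 Hist1 genes, 0.29 for 5 Hist2 genes and -0.17 for 3 Hist3 genes, among them the pseudogene Hist3h2bb-ps. No test compared the clusters, and the signs of Hist3h2ba and Hist3h2a turned under alternatives. The sum over the Hist1 cluster was 326, 315 and 338 TPM in Sevo samples, against 261, 259 and 223 TPM in Ctr samples. The sum over the Hist2 cluster was 62.3, 55.8 and 69.3 TPM in Sevo samples, against 44.6, 48.5 and 54.8 TPM in Ctr samples. The sum over the Hist3 cluster was 346, 364 and 493 TPM in Sevo samples, against 446, 405 and 419 TPM in Ctr samples. The Hist1 and Hist2 sums were higher in every Sevo sample, whereas those of Hist3, with Sevo 3 the highest, overlapped. Without Hist1h1c the Hist1 sum was 286, 299.6 and 255 TPM in Sevo samples, against 253, 249 and 215 TPM in Ctr samples, so that Sevo 3 and Ctr 1 were close. Without Hist1h1c alone, all members summed to 695, 719.5 and 818 TPM in Sevo samples, against 744, 703 and 689 TPM in Ctr samples, with overlap. Without Hist3h2ba, Hist3h2a and Hist1h1c, which were picked after their values had been seen, the remaining members summed to 350, 358 and 328 TPM in Sevo samples, against 300, 301 and 273 TPM in Ctr samples, without overlap.

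**Figure D2:**
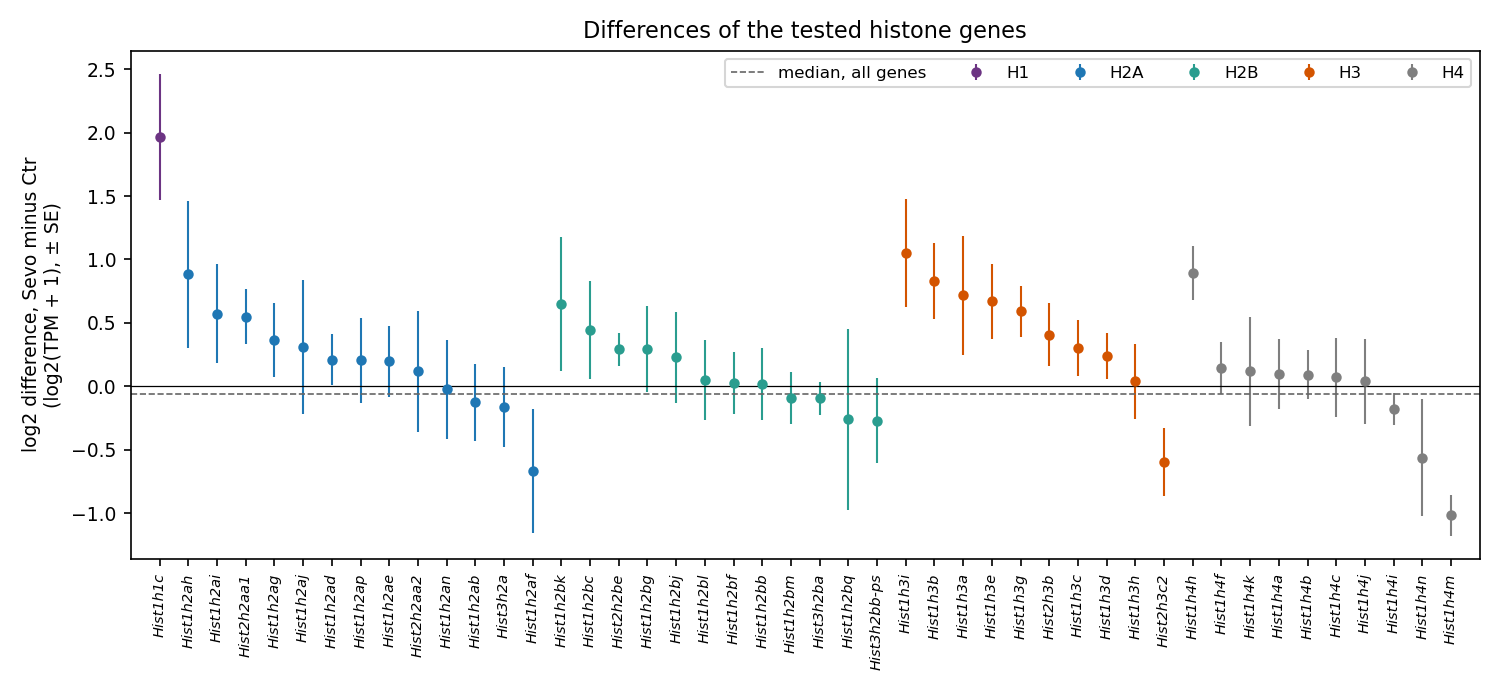
Log2 difference on log2(TPM + 1), Sevo minus Ctr, with its standard error, for the 46 tested histone genes ordered by family and size. The dashed line is the median over all genes at -0.06. Hist1h1c stands at 1.97 and Hist1h4m at -1.02, and 9 of 10 H3 genes lie above 0.

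**Figure D3:**
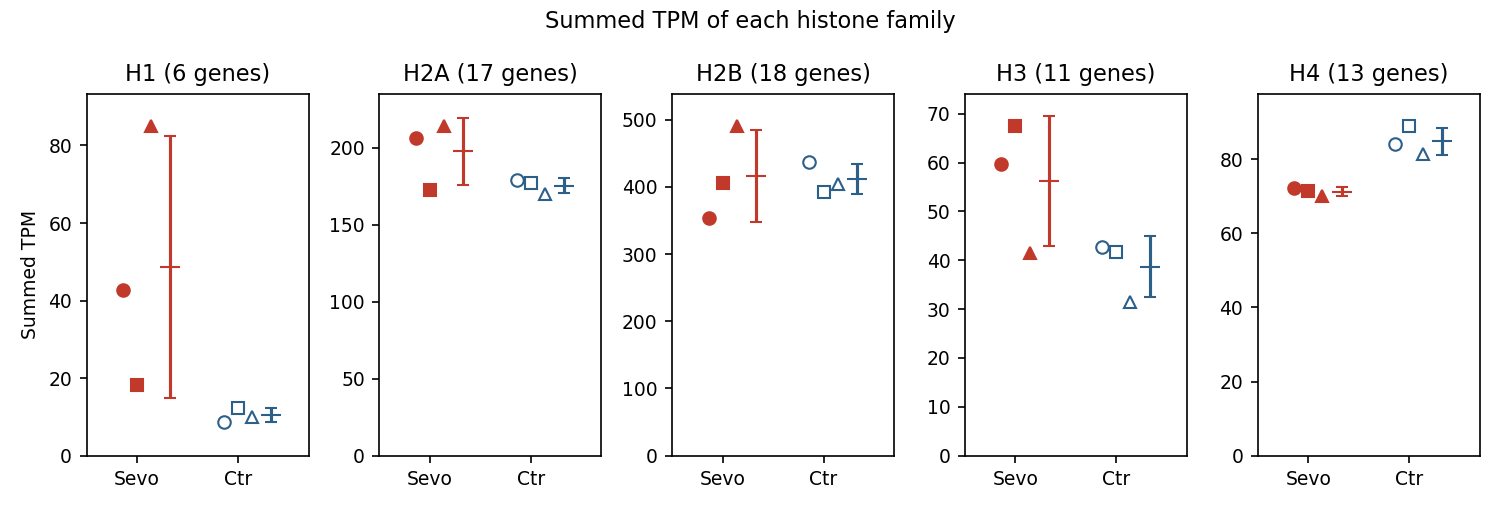
Summed TPM of the members of each family in the 3 Sevo samples (filled, left) and the 3 Ctr samples (open, right), with the mean and SD beside them. The H1 sums (18.1 to 84.9 TPM in Sevo, 8.81 to 12.4 TPM in Ctr) and the H4 sums (70.1 to 72.3 TPM in Sevo, 81.5 to 88.8 TPM in Ctr) did not overlap, while those of H2A, H2B and H3 did.

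The Sevo samples were not alike. Relative to the mean of the Ctr group, the median over the 21 tested members with a short 3′ end was 0.24 in Sevo 1, 0.51 in Sevo 2 and -0.07 in Sevo 3 on the log2 scale. Among the Sevo samples, Sevo 2 was the highest in 10 of these 21 genes and Sevo 3 the lowest in 12. The order was the other way round for Hist1h1c, at 2.05 in Sevo 1, 0.76 in Sevo 2 and 3.09 in Sevo 3. It was likewise for Hist1h2bc, at 0.81, -0.58 and 1.11, and for Hist3h2a, at 0.02, -0.98 and 0.46. These 3 genes have long 3′ ends and were singled out after their values had been seen, and over all 15 tested members with a long 3′ end the medians were 0.31, 0.18 and 0.16. The part of these differences between Sevo samples in the results above was not tested.

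**Figure D4:**
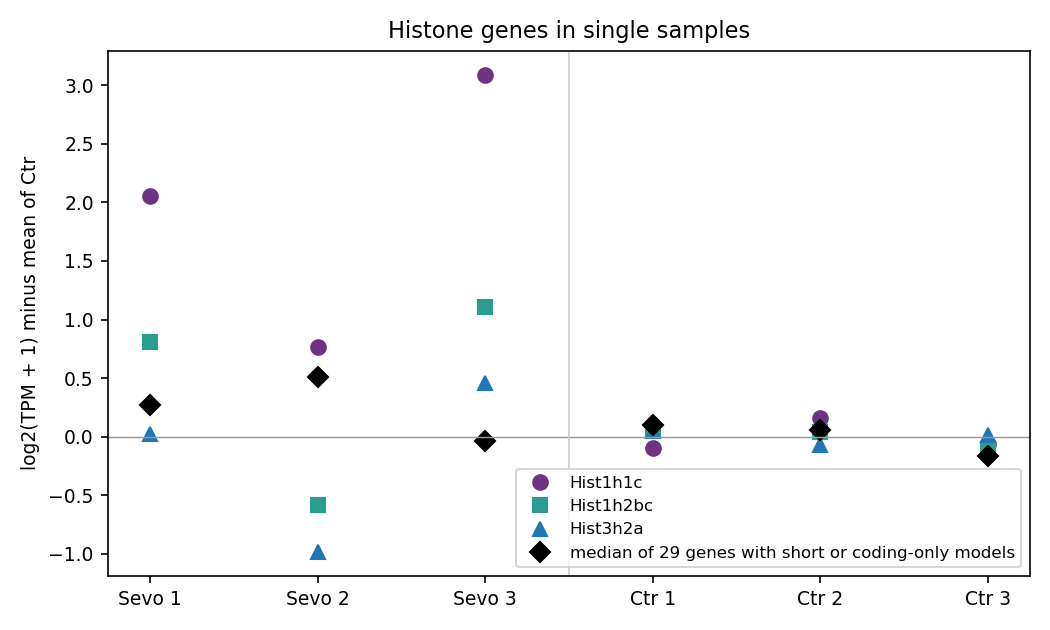
Values of Hist1h1c, Hist1h2bc and Hist3h2a, and the median over the 29 tested members with a short 3′ end or none, in each sample as log2(TPM + 1) minus the mean of the Ctr group. Sevo 3 holds the highest and Sevo 2 the lowest Sevo value of the 3 genes, whereas the median is highest in Sevo 2 at 0.51 and lowest in Sevo 3 at -0.03.

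H2A and H2B genes often lie head to head and share the DNA between their starts. There were 12 pairs of members that start within 400 bases of each other on opposite strands, and both genes were tested in 7 of them. The differences had the same sign in 6 of these 7 pairs, but 34 of all 46 tested members were positive, and nothing is read from this count about neighbours. Hist1h2ah and Hist1h2bk had 0.88 and 0.65, and Hist1h2ag and Hist1h2bj had 0.36 and 0.23. The pseudogene Hist3h2bb-ps and Hist3h2a had -0.27 and -0.17. These examples were taken after their values had been seen. Such neighbours can be far apart in level, as Hist1h2bc averaged 26.6 TPM and its neighbour Hist1h2ac 0.722 TPM.

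The replication-independent variants had far higher TPM than the clustered genes, with sums of 6512 to 7439 TPM in Sevo samples and 5823 to 6413 TPM in Ctr samples. Their mRNAs are polyadenylated, unlike most of the clustered genes, and how RNA was selected is unknown. The TPM of the 2 sets therefore need not reflect their relative abundance. Of the 11 tested, an unadjusted p under 0.05 was found for 3 that were higher (6.56% of all genes) and 3 that were lower (12.8% of all genes). None passed an adjusted p of 0.05 in limma. H3f3b, which encodes H3.3, had 1300, 1610 and 1403 TPM in Sevo samples, against 928, 956 and 851 TPM in Ctr samples, a difference of 0.65 ± 0.10 (SE) with an adjusted p of 0.0746. H3f3a, which encodes the same protein, averaged 2443 ± 32.3 TPM in Sevo and 2415 ± 183 TPM in Ctr (SD, n = 3 each). H1f0, the linker histone of cells that have stopped dividing, had 459, 723 and 569 TPM in Sevo samples, against 318, 371 and 340 TPM in Ctr samples, a difference of 0.74 ± 0.16 (SE) with an adjusted p of 0.0973. So both H1f0 and Hist1h1c were higher in every Sevo sample, but the lowest Sevo sample was Sevo 1 for H1f0 and Sevo 2 for Hist1h1c. H2afy2, a macroH2A gene, averaged 105 ± 7.63 TPM in Sevo and 149 ± 5.15 TPM in Ctr, and Cenpa, the H3 variant of centromeres, 86.6 ± 16.4 TPM in Sevo and 117 ± 6.38 TPM in Ctr (SD, n = 3 each). Neither group overlapped the other in these 2 genes, and their adjusted p were 0.0746 and 0.156.

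Factors that transcribe, process and degrade histone mRNAs had negative differences in 26 of 30, where 58.9% of all genes were negative. Of 30 tested, an unadjusted p under 0.05 was found for 0 that were higher (6.56% of all genes) and 11 that were lower (12.8% of all genes), with a median of -0.18, against -0.06 over all genes, and none passed an adjusted p of 0.05 in limma. Upf1, a helicase that takes part in the decay of histone mRNA, had 25.4, 25.6 and 22.0 TPM in Sevo samples, against 34.3, 37.7 and 41.2 TPM in Ctr samples, with an adjusted p of 0.0855. Casp8ap2 (FLASH), needed for cleavage at the 3′ end, averaged 11.3 ± 0.838 TPM in Sevo and 17.5 ± 2.29 TPM in Ctr (SD, n = 3 each). In both genes every Sevo sample was lower. Slbp, which encodes the stem-loop binding protein, averaged 74.1 ± 11.99 TPM in Sevo and 76.6 ± 4.39 TPM in Ctr, and Npat, the coactivator of histone transcription, 12.4 ± 5.85 TPM in Sevo and 11.0 ± 0.427 TPM in Ctr (SD, n = 3 each), and for both the groups overlapped.

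Of 29 histone chaperones, 0 higher and 8 lower ones had an unadjusted p under 0.05 (6.56% and 12.8% of all genes), with a median of -0.18. Differences were negative in 24 chaperones (58.9% of all genes). Every Sevo sample was lower in 14 (17.7% of all genes) and higher in 0 (9.43% of all genes). Nasp, a chaperone of H3, H4 and linker histones, had 190, 198 and 174 TPM in Sevo samples, against 261, 261 and 248 TPM in Ctr samples, a difference of -0.45 ± 0.08 (SE) with an adjusted p of 0.0750. Asf1b, which hands H3 and H4 to assembly factors in dividing cells, averaged 8.29 ± 1.52 TPM in Sevo and 14.5 ± 1.56 TPM in Ctr (SD, n = 3 each), with an adjusted p of 0.103. Of 46 genes of S phase, 1 higher (2.17%) and 5 lower ones (10.9%) had an unadjusted p under 0.05, below the 6.56% and 12.8% of all genes, with a median of -0.16, against -0.06 over all genes. Differences were negative in 35 of these 46 (58.9% of all genes). Every Sevo sample was lower in 11 (17.7% of all genes) and higher in 1 (9.43% of all genes). Pcna, the sliding clamp of DNA polymerase, averaged 298 ± 39.5 TPM in Sevo and 298 ± 26.5 TPM in Ctr, while Tyms, thymidylate synthase, averaged 47.7 ± 1.20 TPM in Sevo and 69.4 ± 6.57 TPM in Ctr (SD, n = 3 each), without overlap. No chaperone or S phase gene passed an adjusted p of 0.05 in limma, and a few genes, such as Slbp, stand in more than 1 of these lists.

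**Figure D5:**
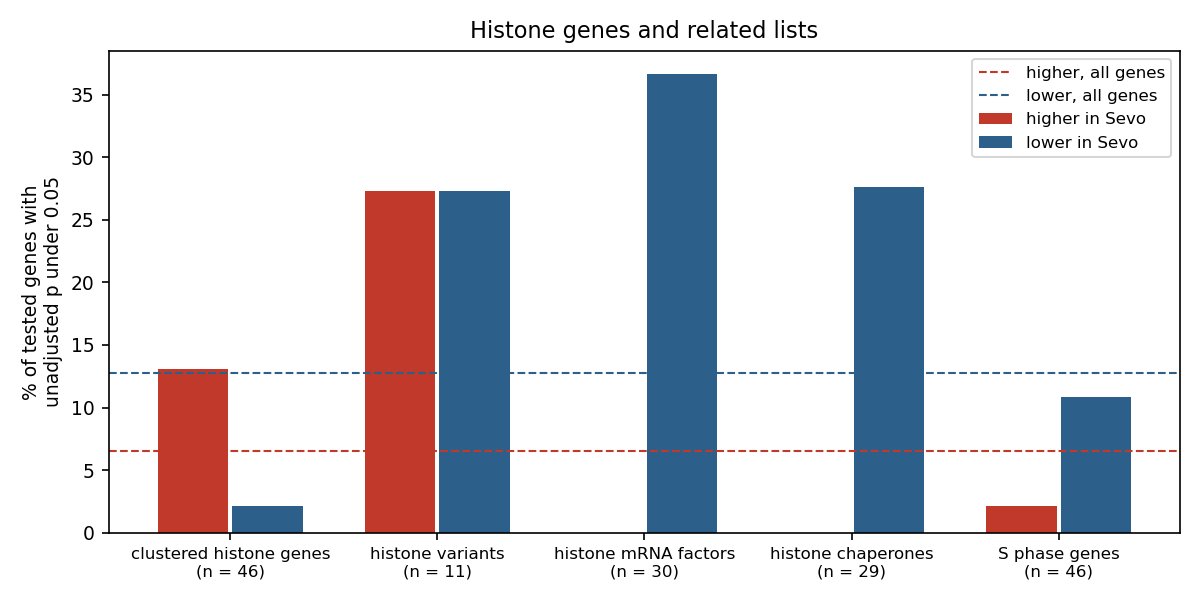
Share of tested genes with an unadjusted p under 0.05 that were higher (red, left) or lower (blue, right) in Sevo than in Ctr, for the clustered histone genes and related lists. Dashed lines are the shares over all genes, 6.56% higher and 12.8% lower, and the counts are 6 and 1 of 46 clustered genes, 3 and 3 of 11 variants, 0 and 11 of 30 mRNA factors, 0 and 8 of 29 chaperones and 1 and 5 of 46 S phase genes.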

How the data were processed

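RNA-Seq of the E14.5 cortex in 3 Sevo and 3 Ctr samples was used. The authors deposited TPM values per gene and sample, rounded to 2 decimals. Per the submitters' processing notes, tools were edgeR and Bowtie 0.12.2 and builds were mm8 and mm10. The annotation, strandedness and software behind the TPM are not stated there. TPM keeps no depth, so a count test, as in the study's methods, was not run.

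Samples were grouped by their labels. Named genes that averaged 1 TPM or more were compared with limma 3.58.1 (R 4.3.3) on log2(TPM + 1), two-sided, with an eBayes trend and Benjamini-Hochberg adjustment. The fit was tested on simulated data. Stem-loops and shared 50-base windows came from GENCODE M21 transcripts, and promoters from RefSeq. GENCODE M21 need not be the annotation behind the TPM.

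The members and lists were chosen with earlier results of these data known. Named with all values were every linker gene, the 10 most abundant core genes and any member with an unadjusted p under 0.05. Genes of the other lists were named by abundance or picked from among those with the smallest unadjusted p. The most abundant mRNA factors and chaperones were not named, so the named ones do not stand for their lists. Slbp, Npat and the head-to-head pairs were named after their values had been seen. Alternatives were pseudocounts of 0.1 and 0.01, no filter, a minimum of 5 TPM, median centring, quantile normalization, rescaling that left out haemoglobin and mitochondrially encoded genes, a replicate block, no trend, and each sample left out.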

Additional observations from a re-analysis of the deposited data

How the results depend on the processing

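No member passed an adjusted p of 0.05 in limma in any of the 15 alternatives. Of the 15 named genes tested, 12 kept their sign in each of them. With median centring the sign turned for Hist3h2ba (0.00106) and for the median of all genes tested (0.0369, against -0.0606). Leaving out 1 sample at a time gave differences between -0.226 and 0.0337 for Hist3h2ba, between -0.479 and 0.241 for Hist3h2a, and between -0.0166 and 0.378 for Hist1h2ad, where the turned signs came without Sevo replicate 1, Sevo replicate 2 and Sevo replicate 2 in that order. Median centring gave 1689 higher and 892 lower genes at an unadjusted p under 0.05 over the whole table, against 953 higher and 1859 lower without it, so the background of a member count depends on the scaling. With a minimum of 5 TPM, which only the 20 most abundant members reached, 2 members were higher at an unadjusted p, and 3 higher and 1 lower did not overlap. With median centring, 1 lower member did not overlap, and without the trend, 2 members were lower at an unadjusted p. With no filter, the linker median was 0.24 over 6 genes, against 1.97 for Hist1h1c alone, as scarce genes then enter. Leaving out 1 sample at a time gave 3 to 9 higher and 1 to 3 lower members at an unadjusted p, 8 to 17 higher and 2 to 5 lower members without overlap, and 0 to 3 higher and 1 to 4 lower genes at an adjusted p over the whole table. Most member counts of this paragraph stand without the counts over all genes under the same setting, so nothing is read from them about the members. The cause of these changes was not tested.

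Sevo and Ctr samples of the same number did not deviate together (r = -0.02, 0.02 and 0.01), so the numbers were not taken as pairs. With the replicate block, 9 higher and 3 lower members had an unadjusted p under 0.05 in limma. The counts over all genes under this model are not given here, so nothing is read from these member counts. Near-identical members, the unknown depth and the unknown selection of RNA limit the values of single histone genes.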
